A study of Cavia porcellus with 44 samples.

Results

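The genes of the interferon response and of antigen presentation were followed in the liver of guinea pigs after diet-induced non-alcoholic steatohepatitis (NASH) and after a change of feed. Members were found by a rule on gene names: interferons (IFN) and their receptors, STAT, IRF and SOCS symbols, the interferon-stimulated genes of the ISG, IFIT, MX, OAS and GBP families, the TRIM family, major histocompatibility complex (HLA) symbols, the peptide transporter TAP2 and the immunoproteasome subunits PSMB8, PSMB9 and PSMB10. The rule found 61 of the 7747 rows in the table of variance-stabilized values. All 61 were tested, among 7629 symbols with a gene name and a total of at least 200 counts over all animals. Several symbols carried the same counts in every animal, so the 61 members form 46 distinct profiles, of 7138 tested in all. Counts of members below are counts of profiles.

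RNA was sequenced from the livers of 44 female Hartley guinea pigs in 6 groups, after 32 weeks on diet. LFH animals (n = 8) ate a low fat feed with high vitamin C (vitC) throughout, with 3.8% fat, no cholesterol and 2000 mg vitC/kg. HFH animals (n = 8) ate a high fat feed throughout, with 20% fat, 0.35% cholesterol, added sucrose and 2000 mg vitC/kg. The other 4 groups first ate high fat feed with 50 mg vitC/kg (HFL) for 16 weeks and then 1 of 4 feeds for another 16 weeks: the same feed (HFL/HFL, n = 10), high fat with high vitC (HFL/HFH, n = 6), low fat with high vitC (HFL/LFH, n = 6) or low fat with low vitC (HFL/LFL, n = 6). Each low fat group was pair-fed to a high fat group, so that feeds differed in fat, cholesterol, sucrose and feed restriction together, and these cannot be told apart. The guinea pig, like humans, cannot make vitC, and so its vitC status follows the feed.

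As background, cells that sense nucleic acids secrete type I interferons (IFNA and IFNB), which bind the receptor IFNAR1/IFNAR2, while interferon gamma from T and NK cells binds IFNGR1/IFNGR2. Both receptors act through JAK kinases and STAT factors, which with the IRF factors switch on antiviral effectors such as MX1 and the OAS enzymes. Interferon gamma in particular induces IRF1, the immunoproteasome and the class II molecules that present peptides to CD4 T cells. SOCS proteins are induced by cytokine signaling and shut it down again. Class II molecules are carried in the liver mostly by Kupffer cells, dendritic cells and B cells, whereas most nucleated cells, hepatocytes included, can use class I.

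The members described by role are 5 profiles of interferons and receptors, IRF1 and IRF4, 3 SOCS profiles, 8 effectors, 4 of class I, 9 of class II and 14 of TRIM. The symbols are names of human orthologues that the authors gave to guinea pig genes. For some members the counts are also those of a gene outside the pathway: IFNAR2 had the same counts as IL10RB, ISG15 as AGRN and SOCS2 as CRADD, and a value for such a pair cannot be assigned to either gene. Within the pathway, HLA-DRB1 shared its counts with HLA-DRB5, HLA-DQA1 with HLA-DQA2 and TRIM34 with the TRIM6-TRIM34 symbol, and 13 IFNA symbols shared 1 profile. HLA-DMB, TAP2 and IFNAR2/IL10RB each also had the same counts as a row without a gene name. IRF7, IRF9, IFNAR1, IFNGR2, JAK1, JAK2, TAP1 and the IFI genes were not analysed here. In the count table the rule matched 196 rows, of which 135 lay under the minimum of 200 counts: 123 were interferon symbols, 9 TRIM and 3 class II. Among these, interferon gamma (IFNG) had 32 counts in total, in 8 animals, IFNB1 and the lambda interferons IFNL2 and IFNL3 had none, and HLA-DRA had 197 counts in 23 animals. Of the matched rows 18 had no count in any animal.

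The libraries held 21133800 to 35427700 counts per animal, with a median of 25652400. Values are in CPM (counts scaled to the same effective library size in each animal). On this scale 3 counts, taken here as the smallest count to rely on, equal 0.0641 to 0.174 CPM depending on the animal. Levels were compared between animals and not between genes, because counts were not divided by gene length. The tissue label was checked on the hepatocyte genes ALB and SERPINA1, which were well above this floor in all 44 animals. In bulk liver RNA, fewer cells of a type and less RNA per cell cannot be told apart. The effective library size went with feed, at 17429900 to 22633700 in LFH and 26802200 to 46773000 in HFH. Fold changes between feeds therefore depend on this scaling.

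The comparisons between feeds set high fat against low fat feed: HFH against LFH, HFL/HFH against HFL/LFH (both with high vitC after the switch) and HFL/HFL against HFL/LFL (both with low vitC). In HFH against LFH, 18 of the 46 profiles passed an adjusted p under 0.05 in edgeR's quasi-likelihood test with Benjamini-Hochberg adjustment, of which 16 were higher and 2 lower in HFH. Over all 7138 profiles 49.6% passed, 27.8% higher and 21.8% lower. In HFL/HFH against HFL/LFH, 14 passed, 13 higher and 1 lower, with 36.7% of all profiles passing, 20% higher and 16.7% lower. In HFL/HFL against HFL/LFL, 13 passed, 8 higher and 5 lower, with 38.5% of all profiles passing, 20.2% higher and 18.4% lower. With edgeR the share of members passing lay under that of all profiles in each of the 3 comparisons. This did not hold with limma voom in HFL/HFH against HFL/LFH, where 23 members (50%) passed, beside 45.4% of all symbols. In the other comparisons between feeds limma voom gave 45.7% of members beside 50% of all symbols (HFH against LFH) and 32.6% beside 37.2% (HFL/HFL against HFL/LFL). In the first 2 comparisons the share of members that were lower, 4.35% and 2.17%, lay under the 21.8% and 16.7% of all profiles. The median log2 fold change of the members was 0.28, 0.27 and 0.03, beside 0.06, 0.02 and 0.03 over all profiles.

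Fewer members had groups that did not overlap at all. In HFH against LFH these were 4 profiles, all higher, where 9.08% of all profiles were higher and 8.07% lower without overlap. In HFL/HFH against HFL/LFH they were 4 higher and 1 lower (10.2% and 6.28% of all profiles), and in HFL/HFL against HFL/LFL 2 higher and 1 lower (6.18% and 3.8%).

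**Figure D1:**
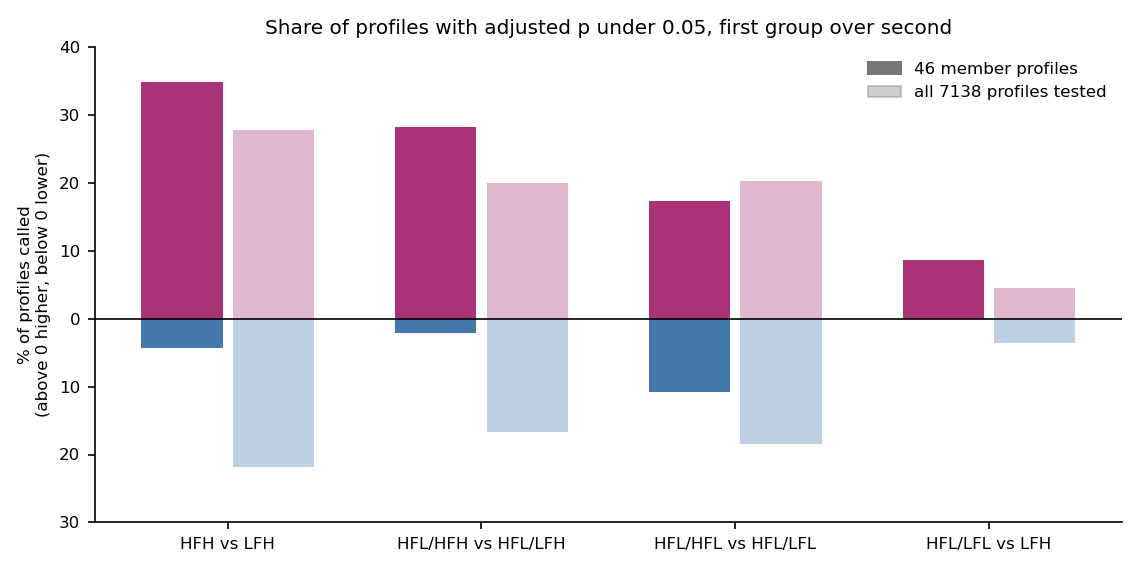
Share of profiles with an adjusted p under 0.05 (percent, vertical axis) among the 46 member profiles (solid bars) and all 7138 profiles tested (pale bars), for 4 comparisons, with higher in the first group above 0 and lower below 0. Members that were lower made up 4.35% in HFH against LFH, beside 21.8% of all profiles.

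In all 3 comparisons between feeds, 8 profiles passed in the same direction, as did 1734 (24.3%) of all profiles. Higher on high fat feed were the effectors MX1, OAS1, OAS3, OASL and ISG15/AGRN, the receptor profile IFNAR2/IL10RB and TRIM34. SOCS2/CRADD was lower.

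**Figure D2:**
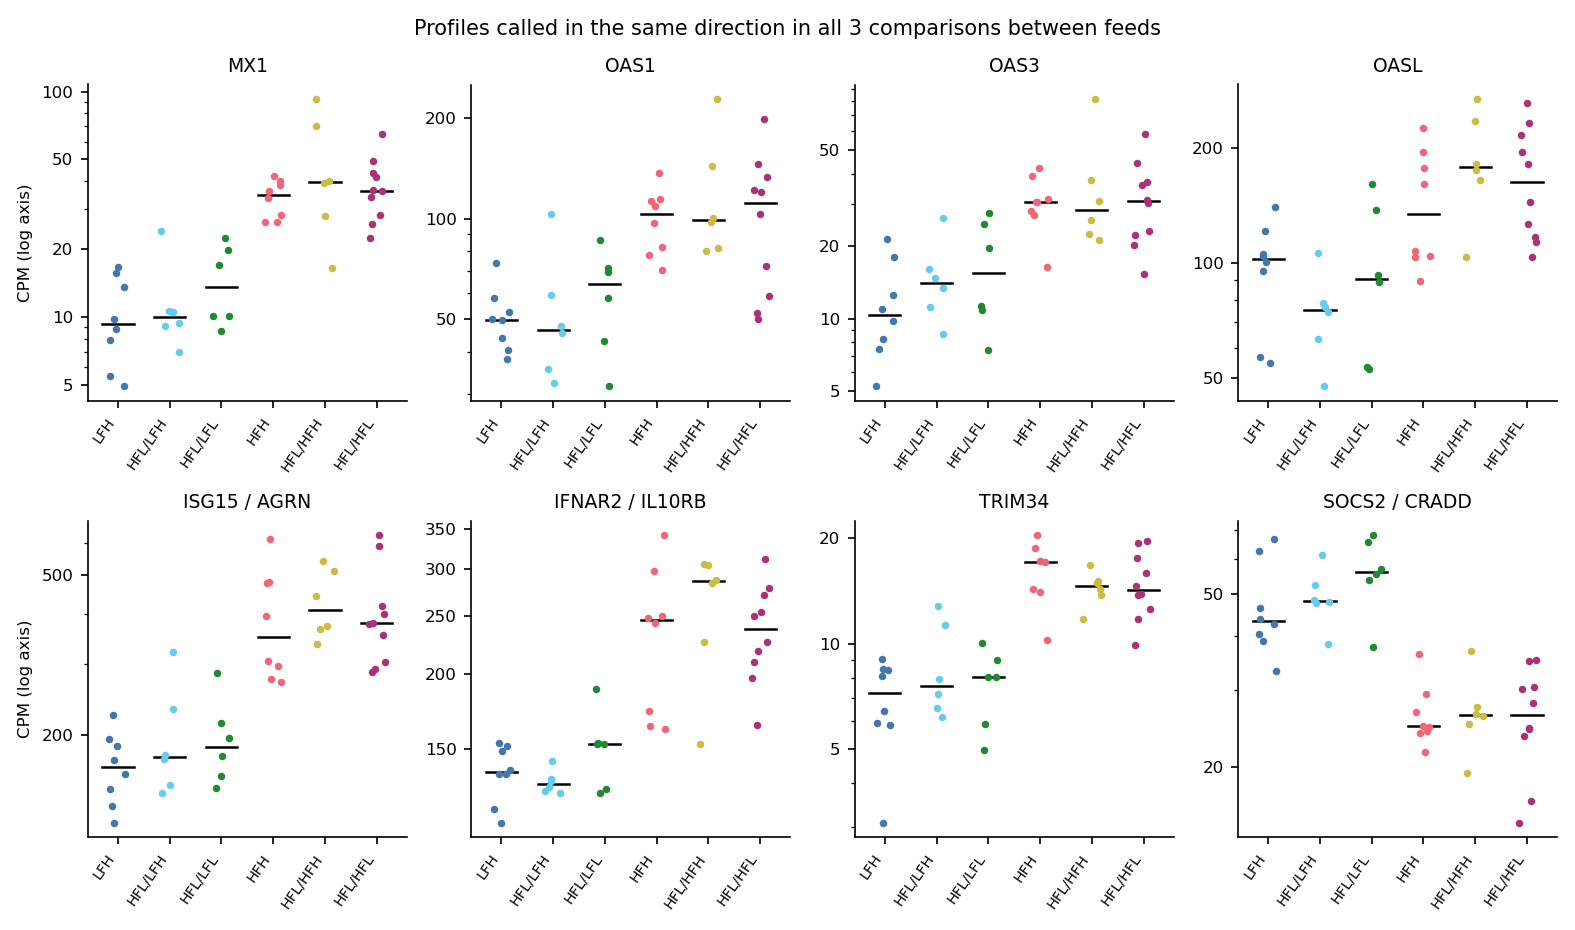
Level (CPM, log axis) of the 8 profiles called in the same direction in all 3 comparisons between feeds, in each of the 44 animals by group, with a line at each group's median. In the ISG15/AGRN panel the 3 high fat groups begin at 271 CPM and only 2 of the 20 low fat animals, at 285 and 321 CPM, lie above that value.

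Among ligands, reads were few. The shared IFNA profile ranged from 0 to 1.19 CPM over the 44 animals, and an IFNB1 row (IFNB1.1) from 0.495 to 2.5 CPM. Neither passed in any of the 10 comparisons with edgeR on all animals. The IFNA profile had its lowest group median, 0.163 CPM, in HFL/LFL, against 0.377 CPM in HFL/HFL (log2 fold change 1.72 ± 0.74 SE for HFL/HFL over HFL/LFL, edgeR adjusted p = 0.0644). It passed with DESeq2 (adjusted p = 0.0369) and with only the groups compared, and in none of the 16 fits that each left out 1 animal. The highest HFL/LFL animal reached 0.261 CPM, within the range of HFL/HFL, 0.181 to 1.15 CPM.

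Of the receptors, IFNAR2/IL10RB was higher on high fat feed in all 3 comparisons. IFNAR2/IL10RB, chains of the type I interferon receptor and of the interleukin 10 receptor family, lay at 113 to 154 CPM in LFH (median 137), 127 to 143 in HFL/LFH (131) and 127 to 189 in HFL/LFL (153). The high fat groups lay at 162 to 341 CPM (HFH, 246), 153 to 306 (HFL/HFH, 286) and 165 to 311 (HFL/HFL, 238). The groups did not overlap in HFH against LFH or in HFL/HFH against HFL/LFH, and overlapped in HFL/HFL against HFL/LFL. The log2 fold changes were 0.78 ± 0.14, 0.98 ± 0.16 and 0.66 ± 0.14 (SE; edgeR adjusted p = 7.62e-06, 3.94e-06 and 0.000331).

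IFNLR1, the ligand-binding chain of the lambda interferon receptor, is a barrier-cell receptor that hepatocytes of some species carry. It had 12.4, 17.5 and 24.9 CPM (lowest, median and highest) in LFH and 18.9, 27.6 and 34.3 CPM in HFH (log2 fold change 0.65 ± 0.17, edgeR adjusted p = 0.00124). HFL/HFH, at 27.3 to 45.1 CPM, did not overlap HFL/LFH, at 14.5 to 24.8 CPM (0.75 ± 0.19, edgeR adjusted p = 0.00189). In HFL/HFL against HFL/LFL the difference was 0.39 ± 0.17 (edgeR adjusted p = 0.0724). IFNGR1, the ligand-binding chain of the interferon gamma receptor, passed in HFH against LFH alone among these comparisons (0.31 ± 0.11 on the log2 scale, edgeR adjusted p = 0.0181). Its 6 group medians ran from 30.9 to 42 CPM.

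IRF1, an early factor induced by interferon gamma, passed in none of the 10 comparisons with edgeR. Its medians on low fat feed were 93.5 CPM (LFH), 84.1 CPM (HFL/LFH) and 89 CPM (HFL/LFL), and on high fat feed 118 CPM (HFH), 155 CPM (HFL/HFH) and 150 CPM (HFL/HFL). In HFL/HFH over HFL/LFH the log2 fold change was 0.59 ± 0.27 (edgeR adjusted p = 0.0803). That difference passed with limma voom (adjusted p = 0.00178), with only the groups compared (edgeR adjusted p = 0.0300) and without HFL/LFH animal 33 (edgeR adjusted p = 0.0186). IRF4, a factor of B, plasma and dendritic cells, was low and rose from a median of 1.1 CPM in LFH to 2.48 CPM in HFH (1.09 ± 0.32, edgeR adjusted p = 0.00391).

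Of the negative regulators, SOCS2/CRADD fell on high fat feed. SOCS2 is induced by growth hormone in the liver and limits its signaling, and CRADD is a death-domain adaptor. The pair lay at 33.2 to 66.7 CPM in LFH (median 43.2), 38.4 to 61.4 in HFL/LFH (48.2) and 37.7 to 68.1 in HFL/LFL (56.2), against 21.6 to 36.3 (HFH, 24.8), 19.3 to 37 (HFL/HFH, 26.3) and 14.9 to 35.3 (HFL/HFL, 26.3). The groups did not overlap in either comparison made after the switch. The log2 fold changes were -0.82 ± 0.16, -0.87 ± 0.18 and -1.1 ± 0.16 (edgeR adjusted p = 2.54e-05, 0.000154 and 4.99e-07). SOCS3, induced by interleukin 6 through STAT3, had 15.1, 18.2 and 23.2 CPM in HFL/LFL and 6.08, 8.74 and 21.5 CPM in HFL/HFL (log2 fold change -0.94 ± 0.26, edgeR adjusted p = 0.00418). In the other feed comparisons SOCS3 did not pass. SOCS1, the main inhibitor of the interferon gamma receptor, passed in no comparison with edgeR, with group medians from 3.37 to 6.01 CPM.

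Among the effectors, MX1, a dynamin-like GTPase that blocks viruses, showed the largest feed difference of the effectors. It lay at 4.92 to 16.7 CPM in LFH (median 9.29), 7.02 to 24.1 in HFL/LFH (9.98) and 8.64 to 22.3 in HFL/LFL (13.6). On high fat feed it lay at 26.3 to 42.2 CPM in HFH (34.9), 16.5 to 92.8 in HFL/HFH (39.6) and 22.4 to 64.7 in HFL/HFL (36.4). HFH did not overlap LFH, nor HFL/HFL HFL/LFL, and HFL/HFH overlapped HFL/LFH through HFL/LFH animal 33, at 24.1 CPM, whose next animal had 10.6 CPM. The log2 fold changes were 1.71 ± 0.29, 2.02 ± 0.33 and 1.38 ± 0.30 (edgeR adjusted p = 3.50e-06, 5.55e-06 and 0.000367). Another row named MX1, MX1.1, which the rule does not match, had group medians from 185 to 362 CPM and smaller differences, of 0.33, 0.90 and 0.61 (edgeR adjusted p = 0.300, 0.0139 and 0.0670). How reads were shared between the MX1 rows is not given in the sources used here.

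The OAS enzymes, which make the 2-5A signal that activates RNase L, were higher on high fat feed too. OAS1 had medians of 50, 46.6 and 63.7 CPM in LFH, HFL/LFH and HFL/LFL and of 103, 99 and 112 CPM in HFH, HFL/HFH and HFL/HFL. Its log2 fold changes were 0.98 ± 0.26, 1.18 ± 0.30 and 0.82 ± 0.27 (edgeR adjusted p = 0.00153, 0.00154 and 0.0149), and all 3 pairs of groups overlapped. For OAS3 the low fat medians ran from 10.4 to 15.4 CPM and the high fat medians from 28.3 to 30.7 CPM, with log2 fold changes of 1.39 ± 0.30, 1.28 ± 0.35 and 0.91 ± 0.31 (edgeR adjusted p = 0.000170, 0.00299 and 0.0196). OASL, an OAS-like protein without the enzyme activity in humans, had medians of 103, 75.5 and 91 CPM on low fat and 134, 178 and 163 CPM on high fat feed. Its difference was smallest in HFH against LFH, at 0.58 ± 0.24 (edgeR adjusted p = 0.0401), and was 1.34 ± 0.28 and 0.79 ± 0.25 in the others (edgeR adjusted p = 0.000170 and 0.0117). The OASL call in HFH against LFH rested on single animals, since it passed in 9 of 16 fits that each left out 1 animal, with an adjusted p up to 0.109 (without HFH 47).

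ISG15/AGRN covers the ubiquitin-like interferon product ISG15 and agrin, a basement membrane proteoglycan. The profile rose from a median of 167 CPM in LFH to 350 CPM in HFH, from 177 in HFL/LFH to 408 in HFL/HFH and from 187 in HFL/LFL to 378 in HFL/HFL. None of the 3 pairs of groups overlapped. The log2 fold changes were 1.21 ± 0.19, 1.1 ± 0.21 and 1.03 ± 0.20 (edgeR adjusted p = 6.86e-07, 6.95e-05 and 5.74e-05). Over the 44 animals, with each group's mean removed, the profile followed the other effectors little (Pearson r = 0.116 with the mean of the other 6), whereas MX1 (0.786), OAS1 (0.777), IFIT3 (0.725), OAS3 (0.686) and OASL (0.533) varied together and GBP5 less so (0.360). These are descriptions over animals that share libraries and scaling.

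Not every effector moved with feed. IFIT3, which binds foreign RNA with its IFIT partners, had medians between 5.07 and 6.58 CPM in all 6 groups. With edgeR on all animals IFIT3 passed in no comparison, although it varied with MX1 and OAS1 between animals of a group. GBP5, a GTPase induced by interferon gamma, passed in none either. It had its highest median, 25.9 CPM, in HFL/LFL and its lowest, 15.3 CPM, in HFL/HFL (log2 fold change -0.68 ± 0.31, edgeR adjusted p = 0.0827). The value rested on single animals: it was -0.13 (edgeR adjusted p = 0.768) without HFL/LFL 68, -1.01 (0.00387) without HFL/HFL 90 and -0.86 (0.0237) without HFL/LFL 44. ISG20L2, an exonuclease of ribosomal RNA maturation that carries an ISG name, was lower in HFL/HFL, at 21.1, 29.3 and 34.5 CPM, than in HFL/LFL, at 31, 42.5 and 44.9 CPM (-0.49 ± 0.11, edgeR adjusted p = 0.000672).

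Among class I members, PSMB10, an immunoproteasome subunit, was higher on high fat feed in both comparisons after the switch. It had medians of 94.1 CPM in HFL/HFH and 53.5 in HFL/LFH (log2 fold change 0.68 ± 0.22, edgeR adjusted p = 0.0107), and 95.9 in HFL/HFL and 55 in HFL/LFL (0.63 ± 0.20, edgeR adjusted p = 0.00940). TAP2, a subunit of the transporter that brings peptides to class I molecules, was higher in HFL/HFH than in HFL/LFH, at medians of 150 and 125 CPM (0.34 ± 0.13, edgeR adjusted p = 0.0280). That call was lost without HFL/HFH animal 15 or 19 or HFL/LFH animal 58 or 43, with an adjusted p up to 0.0957. PSMB8 and PSMB9, whose genes sit beside the TAP genes in the class II region of mammals, passed in none of the 10 comparisons with edgeR on all animals. No class I profile passed in HFH against LFH.

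Class II members went in both directions. In HFH against LFH 5 of 9 profiles passed, 4 higher and 1 lower. Of all profiles 49.6% passed there, 27.8% higher and 21.8% lower. HLA-DPA1, the alpha chain of HLA-DP, had 1.89, 3.56 and 6.8 CPM in LFH and 6.1, 15.1 and 21.3 CPM in HFH (log2 fold change 1.84 ± 0.38, edgeR adjusted p = 9.60e-05). HLA-DPB1, its partner, rose by 0.92 ± 0.29 (edgeR adjusted p = 0.00898) and HLA-DQB1, a beta chain of HLA-DQ, by 0.92 ± 0.27 (edgeR adjusted p = 0.00473). The chains of HLA-DM, which loads peptide onto the other class II molecules, parted. HLA-DMB rose from a median of 16.3 CPM in LFH to 32.2 CPM in HFH (0.95 ± 0.21, edgeR adjusted p = 0.000199), while HLA-DMA fell from 56.8 to 39 CPM (-0.54 ± 0.16, edgeR adjusted p = 0.00506). All these pairs of groups overlapped.

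After the switch 1 of 9 class II profiles passed in each comparison between feeds, where 36.7% (high vitC) and 38.5% (low vitC) of all profiles passed. The change from HFH against LFH was not tested. HLA-DPB1 was higher in HFL/HFH, with a median of 6.58 CPM, than in HFL/LFH, with 3.72 CPM (0.88 ± 0.34, edgeR adjusted p = 0.0390), a call that passed in 5 of 12 fits that each left out 1 animal, with an adjusted p up to 0.187 (without HFL/HFH 15). HLA-DMA was lower in HFL/HFL, at 33.1, 46.8 and 63.8 CPM, than in HFL/LFL, at 49.7, 79.9 and 97.7 CPM (-0.70 ± 0.17, edgeR adjusted p = 0.000763). The other class II profiles passed in neither comparison. HLA-DRB1/DRB5 stayed near the floor, with 0 to 0.459 CPM in LFH and at most 2.45 CPM in any animal.

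**Figure D3:**
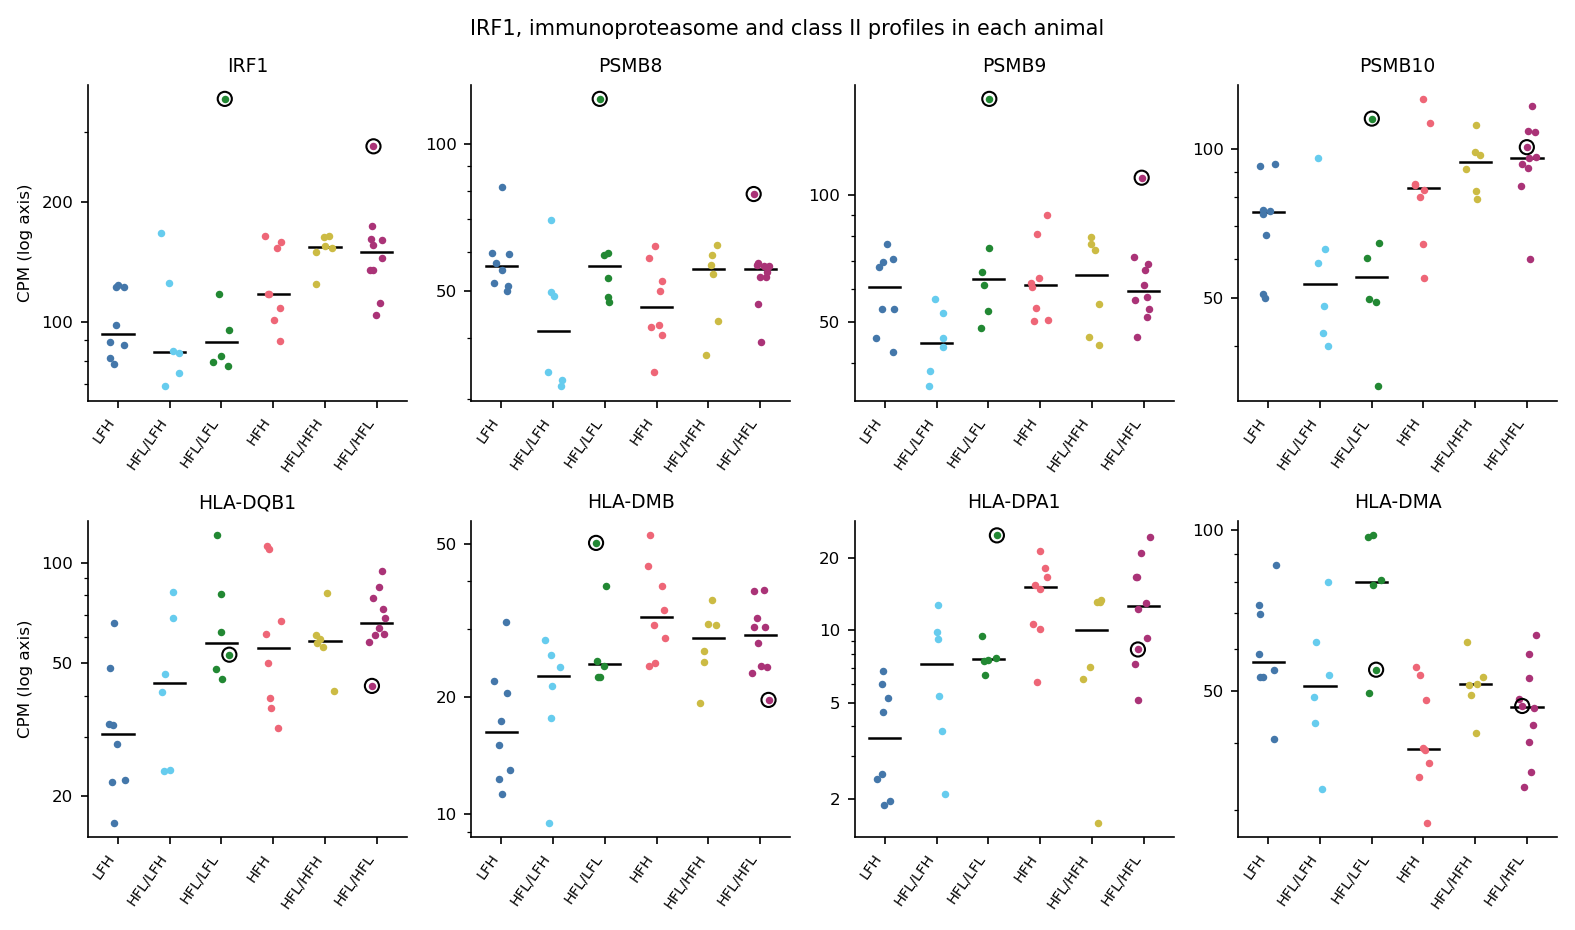
Level (CPM, log axis) of IRF1, PSMB8, PSMB9, PSMB10 and 4 class II profiles in each of the 44 animals by group, with a line at each group's median and rings around HFL/LFL animal 68 and HFL/HFL animal 90. Animal 68 is the highest of its group for IRF1 (364 CPM), PSMB8 (123), PSMB9 (169), HLA-DMB (50.2) and HLA-DPA1 (24.8).

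In the TRIM family, ubiquitin ligases of which several restrict viruses, 2 of 14 profiles passed in each feed comparison. Of all profiles 49.6%, 36.7% and 38.5% passed in these comparisons. TRIM34, named together with the TRIM6-TRIM34 symbol, had medians of 7.25, 7.56 and 8.03 CPM in LFH, HFL/LFH and HFL/LFL and of 17.1, 14.6 and 14.3 CPM in HFH, HFL/HFH and HFL/HFL. Its log2 fold changes were 1.22 ± 0.18, 0.73 ± 0.21 and 0.96 ± 0.19 (edgeR adjusted p = 3.48e-07, 0.00447 and 0.000104), and HFH did not overlap LFH. TRIM36, at 0 to 2.31 CPM over all animals, was higher in HFH than in LFH (2.08 ± 0.64, edgeR adjusted p = 0.00674) and in HFL/HFH than in HFL/LFH (2.02 ± 0.75, edgeR adjusted p = 0.0329), the latter in 6 of 12 fits that each left out 1 animal (adjusted p up to 0.0737, without HFL/HFH 15). TRIM62 was lower in HFL/HFL than in HFL/LFL (-0.68 ± 0.24, edgeR adjusted p = 0.0237, and 0.105 without HFL/LFL 49). TRIM21, the cytosolic antibody receptor, passed in no comparison with edgeR, with medians from 68.1 to 88.9 CPM.

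**Figure D4:**
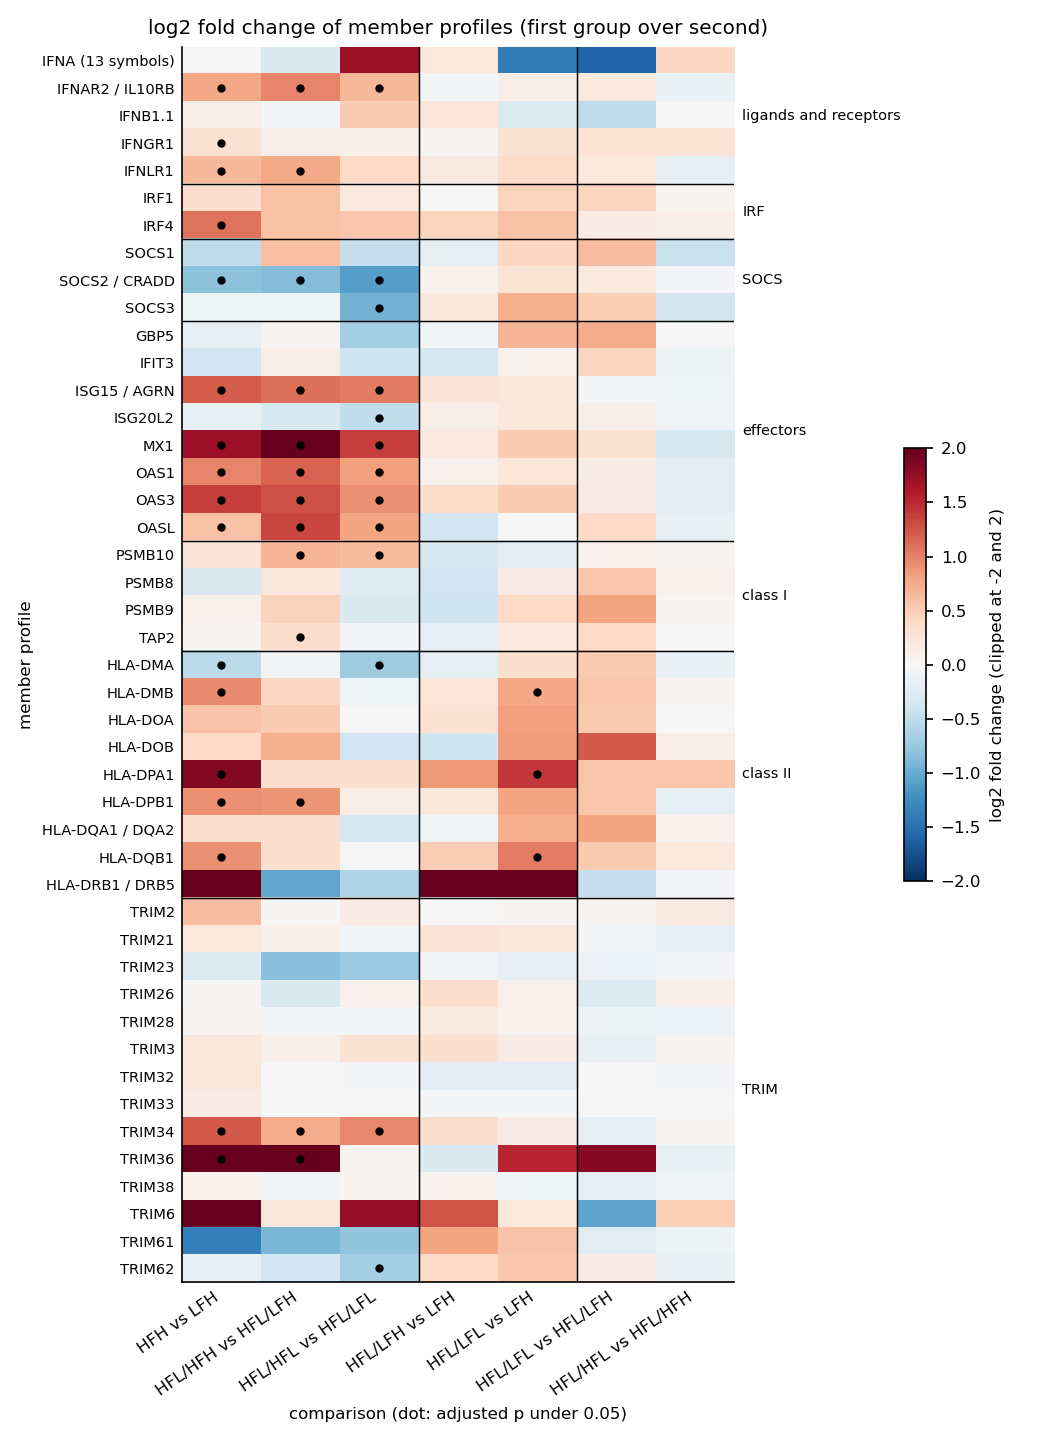
Log2 fold change of the member profiles described by role (rows) in 7 comparisons (columns), the first group over the second, in color clipped at -2 and 2, with a dot where the adjusted p was under 0.05. Dots fill the MX1, OAS1, OAS3, OASL and ISG15/AGRN rows in the 3 feed comparisons, and the column for HFL/LFL against LFH holds dots at HLA-DMB, HLA-DPA1 and HLA-DQB1.

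Whether members returned to the level of lean animals after the switch was read from the low fat groups. These comparisons share the LFH animals with HFH against LFH. In HFL/LFH against LFH none of the 46 profiles passed (0.378% of all profiles), with 5 (10.9%, beside 10.4% of all profiles) at an unadjusted p under 0.05 and 0 in DESeq2. In HFL/LFL against LFH, 4 profiles passed, all higher in HFL/LFL, with 8.04% of all profiles passing, 4.5% higher and 3.54% lower, and 14 members (30.4%) had an unadjusted p under 0.05, as did 23.3% of all profiles. Among them were HLA-DQB1 (log2 fold change 1.02 ± 0.29, edgeR adjusted p = 0.0233), HLA-DMB (0.77 ± 0.22, 0.0249) and HLA-DPA1 (1.42 ± 0.40, 0.0225). All 9 class II profiles had a positive log2 fold change in this comparison, with a median of 0.81. Markers of several cell types were higher in HFL/LFL than in LFH as well: TREM2 and LGALS3 of the 3 macrophage genes tested, CD79B and MS4A1 of 4 B cell genes, LCK of 6 T cell genes, S100A8 and S100A9 of 5 neutrophil genes, RGS5 of 4 stellate cell genes and EPCAM of 3 cholangiocyte genes. None of 4 dendritic cell and of 4 endothelial genes passed. The summed B cell list ran from 364 to 491 CPM in LFH and from 374 to 489 CPM in HFL/LFL, and the summed neutrophil list from 4.48 to 27.9 CPM and from 13.5 to 45.2 CPM. Their part in the class II values was not tested. The 8 effectors also had positive values, with a median of 0.23, and none of them passed.

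The HLA-DQB1 values were 16.6, 30.7 and 66.2 CPM in LFH and 45, 57.6 and 121 CPM in HFL/LFL, those of HLA-DMB 11.3, 16.3 and 31.3 CPM and 22.6, 24.5 and 50.2 CPM. HLA-DPA1 had 6.5, 7.56 and 24.8 CPM in HFL/LFL. These 3 overlapped between the groups. The count of 4 fell to 1 without HFL/LFL animal 68, to 2 without HFL/LFL 49 and to 2 without HFL/LFL 44. It was also 1 with only the groups compared and 2 with limma voom (4.35%, beside 5.19% of all symbols). HLA-DQB1, HLA-DMB and HLA-DPA1 each passed in 7 of 8 alternative fits. Without animal 68, HLA-DQB1 kept an edgeR adjusted p of 0.0241, while HLA-DMB (log2 fold change 0.57, adjusted p = 0.116) and HLA-DPA1 (0.97, 0.139) did not pass. HLA-DQB1 in turn had an adjusted p of 0.113 without animal 44.

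The vitC level after the switch was compared on each feed. In HFL/LFL against HFL/LFH 0 of 46 profiles passed in edgeR (0.238% of all profiles), with 11 (23.9%) at an unadjusted p under 0.05, beside 11.1% of all profiles, and 1, PSMB9, in DESeq2 (adjusted p = 0.0474). The members' median log2 fold change was 0.19, beside 0.00 over all profiles. PSMB9 had 48.6, 63.5 and 169 CPM in HFL/LFL and 35.3, 44.8 and 56.7 CPM in HFL/LFH (log2 fold change 0.79 ± 0.22, edgeR adjusted p = 0.114). Without HFL/LFL animal 68 it was 0.42 (edgeR adjusted p = 0.443). The values for HLA-DOB, an HLA-DM inhibitor (1.22 ± 0.38, edgeR adjusted p = 0.159), HLA-DQA1/DQA2 (0.78 ± 0.31, 0.292) and TAP2 (0.39 ± 0.13, 0.165) were positive and did not pass. Of all 46 members 31 had a positive value. By role, these were 8 of 9 class II and 4 of 4 class I profiles. Of the 14 TRIM profiles 11 had a negative value (median -0.12), and the IFNA profile was at -1.60. All 4 class I profiles had their highest HFL/LFL value in animal 68. Genes measured in the same animals are not independent, so these counts of signs are descriptions only.

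The groups on high fat feed were also compared with each other. In HFL/HFL against HFL/HFH 0 profiles passed in edgeR (0.014% of all), with 1 (2.17%, beside 3.59% of all profiles) at an unadjusted p under 0.05 and 0 in DESeq2. In HFL/HFL against HFH 0 passed in edgeR (0.308% of all), with 3 (6.52%, beside 17.9% of all profiles) at an unadjusted p under 0.05. In HFL/HFH against HFH 0 passed (0% of all), with 3 (6.52%, beside 6.15%) at an unadjusted p under 0.05 and 0 in DESeq2. TRIM32, a ligase best known in muscle, was the member closest to passing, at -0.46 ± 0.14 in HFL/HFL against HFH (edgeR adjusted p = 0.112), and passed there in DESeq2 and in limma voom, where 7.25% of all symbols passed beside 2.17% of members. In the interaction of vitC and feed 0 passed in edgeR (0% of all) and 0 in DESeq2, with 8 (17.4%) at an unadjusted p under 0.05, beside 8.56% of all profiles. Among them were HLA-DMA (0.65 ± 0.25) and PSMB9 (0.76 ± 0.30, and 0.38 without HFL/LFL animal 68).

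Single animals held many of the high values. HFL/LFL animal 68 was the highest of its 6 animals in 21 of the 46 profiles, where an even share would be 7.67, and in all 4 class I profiles. HFL/LFH animal 33 was likewise the highest of its group in 21 profiles, HFL/HFH animal 19 in 16 and HFL/HFL animal 90, of 10 animals, in 12, where an even share would be 4.60. At the low end LFH animal 25 was the lowest of 8 in 18 profiles. Among single genes, IRF1 in animal 68 reached 364 CPM, with the next HFL/LFL animal at 118 CPM, PSMB9 169 CPM with the next at 75 CPM, and PSMB8 123 CPM with the next at 59.7 CPM. Of the class II profiles, animal 68 was the highest in 2 of 9, and its summed class II level, 234 CPM, lay under the group median of 259 CPM. It was also the highest of its group for MX1, at 22.3 CPM, and OAS1, at 86.7 CPM, both under the medians of the 3 high fat groups.

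Genes of the same pathway that the rule does not name, 30 tested of 68 listed, were read against the same shares of all profiles (49.6%, 36.7% and 38.5% passing). In HFH against LFH 9 were higher and 2 lower, in HFL/HFH against HFL/LFH 11 and 3, and in HFL/HFL against HFL/LFL 7 and 9. Without HFL/LFL animal 68 the last were 10 and 6. RSAD2, the antiviral enzyme viperin, rose by 1.66, 2.17 and 1.06 on the log2 scale and LY6E, an interferon-induced surface protein, by 1.63, 1.66 and 1.29. LY6E had medians of 42, 42 and 49.7 CPM in LFH, HFL/LFH and HFL/LFL against 119, 131 and 139 CPM in HFH, HFL/HFH and HFL/HFL. CTSS, the protease that trims the class II chaperone, also passed in all 3, at 1.09, 1.19 and 0.86. PSME1, a subunit of the proteasome activator, fell by 0.58, 0.32 and 0.33. B2M, the light chain of class I, passed in none.

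In HFL/LFL against LFH 6 of these 30 genes were higher: CD74, the class II chaperone, TLR7, MYD88, IDO1, WARS1 and BATF2. Of all profiles 4.5% were higher there. Without HFL/LFL animal 68, 2 were higher and 1 lower. IDO1, the tryptophan-degrading enzyme induced by interferon gamma, was at 226 CPM in animal 68 and at most 6.38 CPM in the other 5 HFL/LFL animals. Its log2 fold change against LFH was 3.65 with this animal and 0.39 without it. CXCL11, a chemokine ligand of CXCR3, was the gene of this list that passed between HFL/LFL and HFL/LFH (4.70, edgeR adjusted p = 0.0380). It was at 12.9 CPM in animal 68, with the next HFL/LFL animal at 0.566 CPM, and its edgeR adjusted p without this animal was 0.432. HFL/HFL animal 90 had 289 CPM of CXCL10, with the next animal of its group at 28.4 CPM.

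Markers of several cell types moved with feed beside the members. The summed level of the macrophage genes tested (CD163, TREM2 and LGALS3, of 7 listed) ran from 5.73 to 17.2 CPM in LFH, 17.9 to 93.4 in HFL/LFH, 64.2 to 137 in HFL/LFL, and 159 to 547, 228 to 560 and 427 to 791 in HFH, HFL/HFH and HFL/HFL. LGALS3 held 280089 counts over all animals, TREM2 55105 and CD163 457, so the sum mostly shows LGALS3. Of the 3 genes, 2 were higher on high fat feed in each feed comparison. TREM2 was at or under 3 counts in 6 animals and CD163 in 15. The 3 cholangiocyte genes tested of 4 listed summed to 107 to 397 CPM over the low fat groups and to 615 to 1300 CPM over the high fat groups. The stellate cell list (RGS5, PDGFRB, LRAT and ACTA2, of 6 listed) summed to 249 to 667 CPM over the low fat groups and to 551 to 1773 CPM over the high fat groups, with RGS5 and PDGFRB higher and LRAT lower in HFH than in LFH. The hepatocyte genes ALB and SERPINA1 (2 of 6 listed) summed to 69455 to 219572 CPM over the low fat groups and to 20301 to 89001 CPM over the high fat groups, and both were lower in HFH than in LFH. The dendritic cell list (FLT3, XCR1, CLEC9A and BATF3, of 6 listed) had summed medians of 64, 63.8 and 87.9 CPM in LFH, HFL/LFH and HFL/LFL and of 35.5, 42.5 and 45.1 CPM in HFH, HFL/HFH and HFL/HFL, with XCR1 at or under 3 counts in 8 animals and with CLEC9A lower and FLT3 higher in HFH than in LFH. CLEC4C of plasmacytoid dendritic cells, the cells known for making type I interferon (1 of 4 listed tested), rose from a median of 0.667 CPM in LFH to 2.27 CPM in HFH. It did not pass in HFL/HFH against HFL/LFH (log2 fold change 0.85) or in HFL/HFL against HFL/LFL (0.79). The B cell list (4 of 5 tested) had summed medians from 410 to 520.3 CPM over the 6 groups. The T cell list (6 of 6 tested) summed to 82.3 to 248 CPM over the low fat groups and 58.3 to 150 CPM over the high fat groups, and had 1 gene higher, CD8A, and 1 lower, CD3E, in HFH against LFH. In HFL/HFH against HFL/LFH the neutrophil genes S100A8, S100A9 and CXCR2 (of 5 tested) were higher. The endothelial genes CDH5, VWF and KDR (of 4 tested) and PRF1 of NK and T cells were lower in HFL/HFL than in HFL/LFL. The part of these cell types in the differences of the members was not tested.

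The genes outside the rule whose level was most like the mean of the 7 effectors other than ISG20L2, over the 44 animals with group means removed, were ZBP1 (Pearson r = 0.826), MX1.1 (0.822), RSAD2 (0.820), HERC5 (0.813) and ENDOV (0.734). These are descriptions over animals that share libraries and scaling. ZBP1 and HERC5 did not pass in HFH against LFH, where MX1 and OAS1 did.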

How the data were processed

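Liver mRNA of 44 guinea pigs was sequenced. The authors trimmed reads with Trimmomatic 0.38.0, used HISAT2 2.1.0 to align them to Ensembl's genome of the species, quantified them with StringTie 2.1.1 and named genes by human orthologues. The deposited table of counts is not normalized, and how StringTie output became counts is not given in the sources used here. The deposited variance-stabilized values, on a log2 scale, served to find the members. The 236 rows without a gene name (2.3 to 3.07% of counts) were left out.

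Counts were fitted in R 4.3.3 with edgeR 4.0.16 (TMM, quasi-likelihood F test, two-sided), all animals together with a mean per group, for symbols with a total of at least 200 counts, with Benjamini-Hochberg adjustment over 7629 symbols in each of 10 comparisons and a threshold of 0.05. The fit was tested on simulated data. Some members count in the totals but are not reported here by name. Alternatives used limma 3.58.1 voom and DESeq2 1.42.0, among others. Replicates are separate animals.

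Members and lists were chosen with earlier results of these data known. Values by group are given for 19 core members present of 42 listed, up to 4 members per direction and comparison with the smallest p, and members passing in all 3 feed comparisons. Other members are named by role where they passed or came close, after their values were seen.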

Additional observations from a re-analysis of the deposited data

Results flagged for a closer look

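For the 24 named profiles, 144 sets of values (profile by group) were searched for an animal far from the others of its group by Dixon's test, and 15 were found, where chance gives about 5%. Profiles of 1 animal are not independent. HFL/LFL animal 68 accounted for 4: HLA-DPA1 at 24.8 CPM, IRF1 at 364 CPM, PSMB8 at 123 CPM and PSMB9 at 169 CPM, all above the other 5 animals, at most 9.50, 118, 59.7 and 75 CPM. HFL/HFL animal 90 accounted for another 4: IRF1 at 277 CPM, PSMB8 at 78.9 CPM, PSMB9 at 110 CPM and SOCS3 at 21.5 CPM. Neither animal stood high for class II as a whole: animal 68 was the highest of its group in 2 of 9 class II profiles and animal 90 in 0, and animal 90 had the lowest summed class II level of its group, 184 CPM.

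The other sets held 1 high or low animal each. HFL/HFH animal 30 was low for HLA-DPA1, at 1.59 CPM, and for TRIM21, at 56.5 CPM. IRF1 was low in HFL/HFH animal 15, at 125 CPM. MX1 was high in HFL/LFH animal 33, at 24.1 CPM, PSMB8 in LFH animal 64, at 81.6 CPM. PSMB10 was low in HFL/HFL animal 29, at 59.9 CPM, and TRIM34 in LFH animal 25, at 3.08 CPM. The cause of these values was not tested.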

How the results depend on the processing

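No paired analysis was possible because no animal was measured in more than 1 group. Of 49 calls of a member in a comparison, 44 kept their direction and threshold under all 8 alternatives (RLE normalization, no filter on low counts, shared counts taken once, only the groups compared, robust fit, limma voom, DESeq2 and, chosen after seeing the data, rows without a gene name kept), 38 did so in every fit that left out 1 animal, and none of 100 values followed was reversed. With limma voom the members passing were 23 in HFL/HFH against HFL/LFH (45.4% of all symbols passing), 2 in HFL/LFL against LFH (4.35%, beside 5.19% of all symbols) and 1 (TRIM32) in HFL/HFL against HFH (2.17%, beside 7.25%). With DESeq2 they were 1 (PSMB9) in HFL/LFL against HFL/LFH and 1 (TRIM32) in HFL/HFL against HFH. With only the groups compared, 1 passed in HFL/LFL against LFH. Fits that each lacked 1 animal gave 17 to 19 in HFH against LFH, 12 to 16 in HFL/HFH against HFL/LFH, 11 to 15 in HFL/HFL against HFL/LFL, 1 to 5 in HFL/LFL against LFH, 0 to 1 in HFL/HFL against HFH and 0 to 0 in the other comparisons. The cause of these changes was not tested. In HFL/HFL against HFL/LFL, OAS1 was lost without HFL/LFL 53, and OAS3 without HFL/LFL 53, 17 or 13. Members near 1 CPM or below rest on few counts, and symbols with shared counts cannot be resolved.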

Other observations

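WARS1, the tryptophan-tRNA ligase that interferon gamma is known to induce, reached 575 CPM in HFL/LFL animal 68, with the next animal of the group at 130 CPM. PRF1, a cytotoxic protein of NK and T cells, was also highest in this animal, at 101 CPM, where the group median was 43.3 CPM. CXCL9 was at 37.3 CPM, with the next animal at 17.5 CPM. The animal's dendritic cell list was the highest of the group, at 125 CPM, while its TLR7 level, 3.1 CPM, was the lowest. In HFL/HFL against HFL/LFL, BATF2 had a log2 fold change of -0.41 with all animals and of 0.79 (edgeR adjusted p = 0.0101) without animal 68, and IDO1 of -2.10 and 1.16 (edgeR adjusted p = 0.177).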
